A study of Caenorhabditis elegans with 2 samples.

Results

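Mitochondrial ribosomal proteins are encoded in the nucleus, translated in the cytosol and imported into mitochondria, where they assemble with mitochondrial rRNA into the ribosome that translates the few mRNAs of the mitochondrial genome. The small subunit binds the mRNA and decodes it, and the large subunit joins the amino acids. Most products of that ribosome are subunits of the respiratory chain and of ATP synthase, and in C. elegans lowered expression of mitochondrial ribosomal protein genes such as mrps-5 is known to extend lifespan and to induce the mitochondrial unfolded protein response. The genes were examined here for binding of CEH-82, also named F45C12.2, a homeodomain protein. Homeodomains are DNA-binding domains that often contact a TAAT core.

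The members were all protein-coding genes whose name in the WBcel235 annotation starts with mrpl- (large subunit) or mrps- (small subunit). There were 70 of them, 41 mrpl and 29 mrps genes, among 19973 protein-coding genes on the 6 nuclear chromosomes. Chromatin immunoprecipitation with sequencing (ChIP-seq) was done on whole first-stage (L1) larvae of both sexes from strain OP212, genotype unc-119(ed3) III; ddEx58, which stably expresses F45C12.2 with GFP-FLAG at its C terminus. There was 1 group with 2 biological replicates, all of the same transgenic line, with no other genotype, stage or treatment, and no control library was analysed here. Whole larvae mix all tissues, so binding in a few cell types and weak binding in many cannot be told apart, and the tagged protein comes from a transgene. The authors' thresholded list held 2052 peaks and was derived by a comparison of ranks between replicates. Their relaxed lists, described by them as peaks and background, held 30000 peaks for the pooled replicates, 16551 for replicate 1 and 30000 for replicate 2. The thresholded peaks were the 2052 strongest of the pooled list, and not each of them was found in both replicates. Replicate 1 held an overlapping relaxed peak for 94.3% of them and replicate 2 for 99.95%. No read depth is known for either replicate, and the intervals below cover counting error only.

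A peak was placed at a gene when its summit lay between 1000 bp upstream and 200 bp downstream of an annotated transcript start. By that rule 19 of the 70 genes (27.1%, 95% Wilson interval 18.1 to 38.5) had a thresholded peak, against 9.91% of all protein-coding genes (1980 of 19973). The 19 genes drew on 18 distinct peaks, because mrpl-1 and mrps-24 shared 1. Another 31 genes (44.3%) had only a peak of the pooled relaxed list, and 20 genes (28.6%) had neither. Thresholded and relaxed peaks together reached 50 genes (71.4%), against 43.4% of all protein-coding genes. The large subunit had 12 of 41 genes with a thresholded peak (29.3%, interval 17.6 to 44.5) and the small subunit 7 of 29 (24.1%, interval 12.22 to 42.1). These 2 intervals overlapped over most of their length, and the difference between the subunits was not tested.

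The strongest of these peaks are shown first as DNA, so that the letters under them can be read and compared. The following 100-base windows are centred on the summits of the 6 members with the highest signal, are read on the member's own strand from 5′ to 3′, and come from the RefSeq WBcel235 sequence. Capitals mark matches on either strand to CTCNANNGC, to the homeodomain core TAAT and to CTGCGTC.
mrps-7: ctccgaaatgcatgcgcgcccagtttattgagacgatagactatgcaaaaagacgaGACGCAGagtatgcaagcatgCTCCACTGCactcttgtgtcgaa
mrpl-28: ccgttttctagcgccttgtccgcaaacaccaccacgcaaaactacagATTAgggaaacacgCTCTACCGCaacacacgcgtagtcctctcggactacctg
mrpl-49: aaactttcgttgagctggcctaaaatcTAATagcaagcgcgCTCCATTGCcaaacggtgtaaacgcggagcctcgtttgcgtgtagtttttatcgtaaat
mrpl-45: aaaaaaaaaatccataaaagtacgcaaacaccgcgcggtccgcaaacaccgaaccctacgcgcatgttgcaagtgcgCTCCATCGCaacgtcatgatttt
mrpl-12: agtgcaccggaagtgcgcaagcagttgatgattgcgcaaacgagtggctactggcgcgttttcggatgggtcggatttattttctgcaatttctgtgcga
mrps-21: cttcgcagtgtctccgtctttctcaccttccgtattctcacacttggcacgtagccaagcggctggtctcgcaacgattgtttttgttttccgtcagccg
The mrps-7 window lies at chrIV:14767850-14767949 and the mrpl-28 window at chrII:156065-156164, both on the minus strand. The mrpl-49 window lies at chrV:12728411-12728510 on the plus strand, and the mrpl-45 window at chrIII:1202316-1202415 on the minus strand. The mrpl-12 window lies at chrIII:10707207-10707306 on the plus strand, and the mrps-21 window at chrIV:4660442-4660541 on the minus strand. All 6 windows lie between genes in the annotation.

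The element CTCNANNGC occurs in 4 of the 6 printed windows, those of mrps-7, mrpl-28, mrpl-49 and mrpl-45, and each time it reads in that direction on the member's own strand. It was picked after these windows had been read, so its presence in them is how it was chosen. Across all 18 member peaks the same search, on both strands, found it in 5 (27.8%). Outside the printed windows only that of mrpl-47 had it. The 27.8% includes the 4 windows from which the element was picked, so the shares that follow cannot show an excess in the members. It was present in 11.3% of the 62 peaks at cytosolic ribosomal protein genes, in 9.10% of the 1439 thresholded peaks in any promoter window and in 7.89% of all 2052 thresholded peaks. In the 27948 pooled relaxed peaks outside the thresholded list it was present in 2.52%, but those windows were poorer in G and C, with a median of 37% against 47.5% in the member peaks and 49% in all thresholded peaks. The core TAAT was present in 10 of the 18 member windows (55.6%), in 33.1% of the thresholded promoter peaks and in 58.4% of the relaxed peaks. The longer homeodomain site TAATTA, which contains TAAT, occurred in the windows of mrps-17 and mrps-28, 2 of 18 (11.1%), and in 1.53% of the thresholded promoter peaks. GAGAGA was present in 2 member windows (11.1%), against 24.4% of the thresholded promoter peaks, and CTGCGTC in 2 (11.1%), against 13.5%. The palindrome CACGTG was in 0 of 18 member windows and in 3.20% of the thresholded promoter peaks. A match describes the letters in a window and not a bound site, and none of these shares was tested.

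Signal, the authors' score for a peak, ranged over the 19 genes from 22.7 to 125 with a median of 50.3, and the 1980 protein-coding genes with a thresholded peak had a median of 45.1. The median was 56.1 over the 12 mrpl genes and 46.5 over the 7 mrps genes. Of the 19 genes, 16 (84.2%) had a signal above 39.8, the median of the thresholded list, against 57.3% of all protein-coding genes with such a peak. Ranked over the pooled list, 8 of the 19 were within the strongest 500 peaks and 1 within the strongest 100. Of all 2052 thresholded peaks, 500 and 100 lie within those ranks by construction. The same counts over all protein-coding genes with a thresholded peak were not made. The scores of the 2 replicates are on different scales. Over the 17 member peaks found in both, replicate 2 gave a median of 4.09 times the score of replicate 1, with a range of 1.73 to 9.48, so replicates are compared below by rank, where 1 is the strongest.

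**Figure D1:**
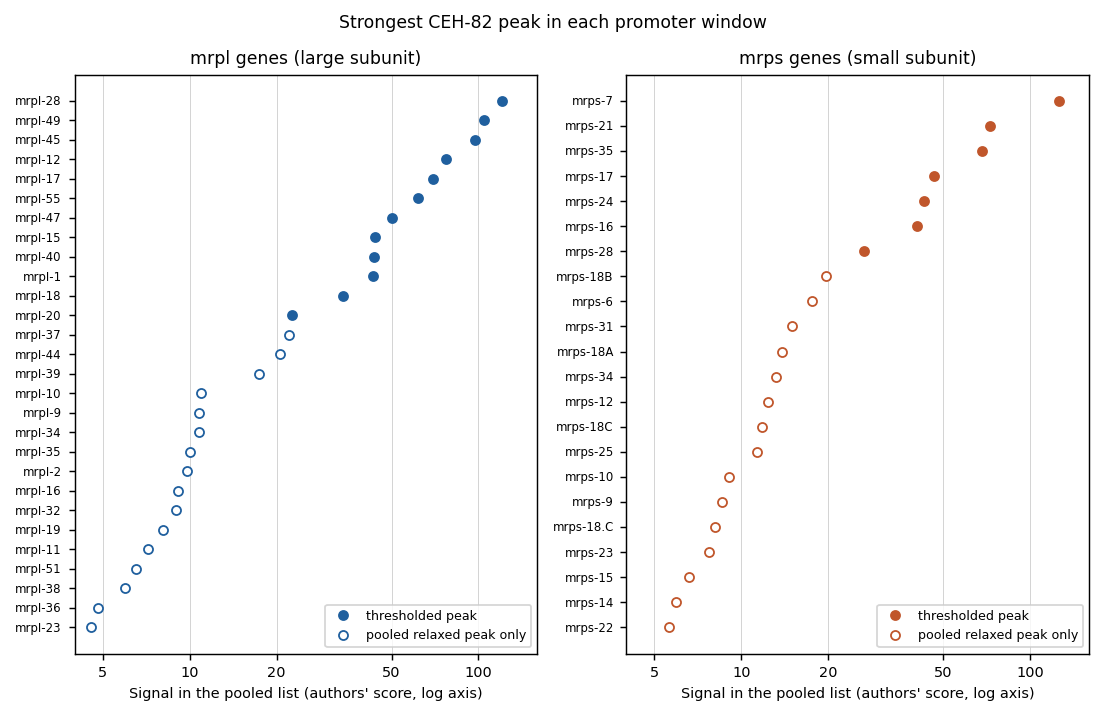
Signal of the strongest peak in the promoter window (horizontal log axis, the authors' score in the pooled list) for the 28 mrpl and 22 mrps genes that had one; filled points are thresholded peaks and open points pooled relaxed peaks only. The strongest member of each subunit, mrpl-28 and mrps-7, stood at 121 and 125, and the thresholded peaks ended at 22.7 (mrpl-20).

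The strongest peak belonged to mrps-7, whose bacterial counterpart sits in the head of the small subunit. It spanned chrIV:14767865-14767939 and had a signal of 125, rank 98 of the pooled list, with rank 51 in replicate 1 and rank 137 in replicate 2. Its summit lay 170 bp upstream of mrps-7 and 301 bp upstream of the divergent gene Y57G11C.3. The peak of mrpl-28 at chrII:156059-156167 had a signal of 121 and ranks of 112 in the pooled list, 106 in replicate 1 and 115 in replicate 2. It lay 106 bp upstream of mrpl-28 and in the promoter window of no other protein-coding gene. Both replicates thus placed these 2 peaks within their strongest 137.

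Next came mrpl-49, which has no bacterial counterpart. Its peak at chrV:12728346-12728575 had a signal of 105 and ranks of 160 in the pooled list, 138 in replicate 1 and 159 in replicate 2. The summit was 170 bp upstream of mrpl-49 and 349 bp upstream of rpl-28, which encodes a protein of the cytosolic large subunit and is transcribed the other way, so that a mitochondrial and a cytosolic ribosomal protein gene faced the same peak. The peak of mrpl-45 at chrIII:1202251-1202480 had a signal of 97.2 and ranks of 187, 183 and 200 in the pooled list, replicate 1 and replicate 2. In humans the counterpart of mrpl-45 anchors the ribosome to the inner mitochondrial membrane. The summit lay 358 bp upstream of mrpl-45 and nearer, at 180 bp, to Y119D3B.12 on the other strand.

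The stalk protein gene mrpl-12, whose bacterial counterpart recruits translation factors, had a peak at chrIII:10707142-10707371 with a signal of 77.3 and pooled rank 316. It ranked 511 in replicate 1 and 304 in replicate 2. At 504 bp from mrpl-12 the summit was nearer to Y39A1A.22 (229 bp) and Y39A1A.21 (235 bp). The peak assigned to mrps-21 at chrIV:4660377-4660606 had a signal of 72.6 and pooled rank 367, with rank 321 in replicate 1 and 411 in replicate 2. Its summit was 975 bp upstream of mrps-21, the greatest distance among the 19, and F29B9.11 lies in between on the same strand. That summit was 291 bp from F29B9.11 and 499 bp from jmjd-1.2, a histone demethylase gene on the other strand.

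The peak of mrpl-17 (chrI:3162506-3162735, signal 69.3, pooled rank 404) ranked 934 in replicate 1 and 367 in replicate 2. It lay 192 bp from mrpl-17 and 230 bp from vbh-1, a DEAD-box RNA helicase gene. The peak of mrps-35 (chrV:18981087-18981316, signal 68.2, pooled rank 421) ranked 1792 in replicate 1 and 316 in replicate 2. Its summit, 104 bp from mrps-35 and 52 bp from a start of sws-1, was the 1 member summit inside an annotated transcript, in the 5′ UTR of sws-1. The peak of mrpl-55 (chrIV:443762-443991, signal 61.8, pooled rank 505) ranked 832 in replicate 1 and 462 in replicate 2, and lay 108 bp upstream of that gene alone. The peak of mrpl-47 (chrI:5244165-5244394, signal 50.3, pooled rank 716) ranked 349 in replicate 1 and 1028 in replicate 2, with its summit 3 bp upstream of the mrpl-47 start. Replicate 1 thus ranked mrps-35 far below replicate 2, and mrpl-47 above it.

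Among the other 9 genes, mrps-17 had a signal of 46.5, mrpl-15 of 43.8 and mrpl-40 of 43.6. The peak between mrps-24 and mrpl-1 had a signal of 43.0. It lay 146 bp from mrps-24, 163 bp from emc-6, a gene of an endoplasmic reticulum membrane complex, and 198 bp from mrpl-1, whose bacterial counterpart forms the mobile stalk near the tRNA exit. The peaks of mrps-16, mrpl-18, mrps-28 and mrpl-20 had signals of 40.4, 34.0, 26.5 and 22.7. The last of these was rank 2022 of the pooled list, close to the end of the thresholded list at rank 2052.

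All 19 summits lay upstream of the member's start, as did 96.2% of those at all protein-coding genes with a thresholded peak. The median distance was -170 bp (negative is upstream), with -182 bp for the mrpl and -146 bp for the mrps genes, against -219 bp over all protein-coding genes with such a peak. Within 200 bp of a start lay 13 of the 19 (68.4%), against 45.5% of all protein-coding genes with a peak. At cytosolic ribosomal protein genes the median distance was -299 bp, and 8 of 65 (12.3%) had the summit within 200 bp. The difference in distance between the 2 lists was not tested. Of the 19 summits, with that of mrpl-1 and mrps-24 counted for each gene, 18 were intergenic. Within 200 bp of an annotated small RNA gene lay 0 of them. Neither count was made for all protein-coding genes with a thresholded peak, so neither can be called particular to the members.

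**Figure D2:**
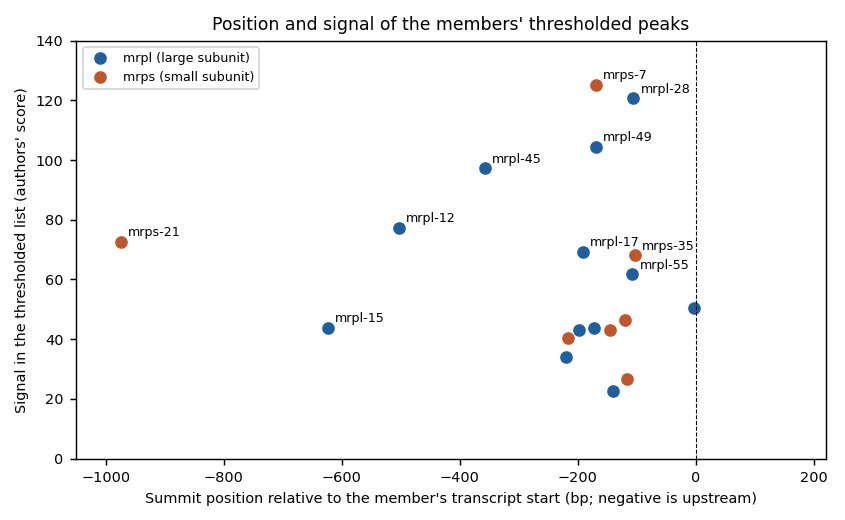
Summit position relative to the member's transcript start (horizontal axis, bp, negative is upstream) and signal (vertical axis, the authors' score) of the 19 genes with a thresholded peak, blue for mrpl and orange for mrps genes. Of the 19 points 15 lie within 250 bp of the start, while mrpl-45, mrpl-12, mrpl-15 and mrps-21 have summits 358, 504, 624 and 975 bp upstream.

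The summit also lay in the promoter window of another protein-coding gene for 13 of the 19 (68.4%), 7 of 12 mrpl and 6 of 7 mrps genes. The same held for 57.1% of all protein-coding genes with a thresholded peak. In 8 of the 13 a start of the other gene was nearer to the summit, and in 5 the member's own was the nearest. Peak lists do not say which gene of such a pair a summit serves. With the peak given only to the nearest start, 11 of 70 members (15.7%) had one, against 7.03% of all protein-coding genes. With only those summits that fell in 1 gene's window, 6 of 70 (8.57%) had one, against 4.29%, and these were mrpl-28, mrpl-55, mrpl-47, mrpl-15, mrps-16 and mrpl-20.

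Replicate 1 held an overlapping relaxed peak (at least 1 bp) for 17 of the 18 distinct member peaks and replicate 2 for all 18. The missing one was that of mrps-17, which ranked 690 in replicate 2. Over the 1397 distinct peaks that were the strongest of any protein-coding gene, 95.1% were matched in replicate 1 and 100% in replicate 2. Within the strongest 2052 peaks of each replicate, 15 of the 18 were found in replicate 1 (83.3%, against 76.4% of those 1397) and 17 in replicate 2 (94.4%, against 94.1%). Called from replicate 1 alone, in that number of peaks, 21 of 70 members (30.0%) had one, against 9.14% of all protein-coding genes. From replicate 2 alone the count was 18 (25.7%), against 9.86%. The same 15 genes were found in the thresholded list and in each replicate alone. Replicate 1 alone lacked mrpl-18, mrps-17 and mrps-28 and added mrpl-23, mrpl-37, mrpl-44, mrps-18B and mrps-34, and replicate 2 alone lacked mrpl-20 and added none. The replicate 1 peak at mrpl-23 was not its pooled relaxed peak, which had no overlapping peak in replicate 1.

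**Figure D3:**
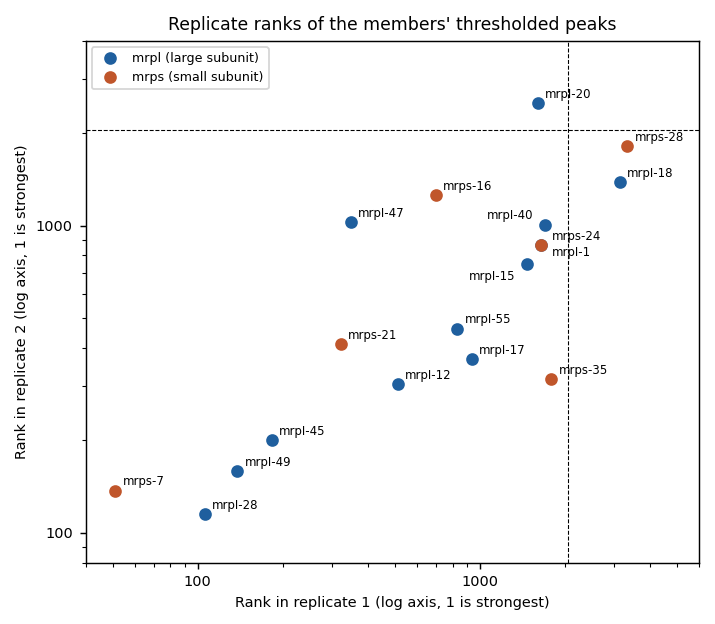
Rank of the thresholded member peaks in replicate 1 (horizontal) and replicate 2 (vertical), both log axes on which 1 is the strongest; dashed lines mark rank 2052, the length of the thresholded list. The peaks of mrps-7, mrpl-28, mrpl-49 and mrpl-45 were within rank 200 in both, mrps-35 stood apart at 1792 in replicate 1 and 316 in replicate 2, and mrps-17, unmatched in replicate 1, is not drawn.

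Of the 51 genes without a thresholded peak, 31 had a relaxed peak, with signals of 4.58 to 22.03 and a median of 9.80. The 3 just outside the threshold were mrpl-37 (signal 22.03, rank 2082), mrpl-44 (20.6, rank 2226) and mrps-18B (19.6, rank 2321). The peak of mrpl-37 ranked 885 in replicate 1 and 3018 in replicate 2, and that of mrpl-44 ranked 1538 and 2766, so each was in the strongest 2052 of replicate 1 only. The weakest peak inside, that of mrpl-20, ranked 1606 in replicate 1 and 2504 in replicate 2.

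Between signals of 10 and 18 came mrps-6 (17.5, rank 2574), mrpl-39 (17.4, rank 2593), mrps-31 (14.9, rank 3023), mrps-18A (13.8, rank 3309), mrps-34 (13.2, rank 3476), mrps-12 (12.3, rank 3798), mrps-18C (11.8, rank 4029) and mrps-25 (11.3, rank 4288). The mrpl genes mrpl-10 (11.0, rank 4476), mrpl-9 (10.8, rank 4599), mrpl-34 (10.8, rank 4616) and mrpl-35 (10.03, rank 5254) were at the lower end of that span. Below a signal of 10 were mrpl-2 (9.80, rank 5497), mrpl-16 (9.14, rank 6267), mrps-10 (9.04, rank 6405), mrpl-32 (8.98, rank 6481), mrps-9 (8.58, rank 7158), mrps-18.C (8.07, rank 8193), mrpl-19 (8.07, rank 8211) and mrps-23 (7.71, rank 9118). The weakest were mrpl-11 (7.18, rank 10810), mrps-15 (6.59, rank 13266), mrpl-51 (6.53, rank 13586), mrpl-38 (5.99, rank 16599), mrps-14 (5.93, rank 16994), mrps-22 (5.60, rank 19330), mrpl-36 (4.81, rank 26232) and mrpl-23 (4.58, rank 28729). Replicate 1 held an overlapping peak for 16 of these 31 and replicate 2 for 28. No relaxed peak either was placed at mrpl-4, mrpl-13, mrpl-21, mrpl-22, mrpl-24, mrpl-30, mrpl-41, mrpl-42, mrpl-46, mrpl-48, mrpl-50, mrpl-53 and mrpl-54, or at mrps-2, mrps-5, mrps-11, mrps-26, mrps-27, mrps-30 and mrps-33.

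Where these genes lie among their neighbours split them further. In C. elegans many genes are transcribed together from 1 promoter as operons, and the annotation used here holds no operon features, so a layout by distance was used. A gene was called divergent if the outermost start of a gene on the other strand lay within 1000 bp upstream of its own. A gene not divergent was called in a run if the gene directly upstream shared its strand and overlapped it or ended within 500 bp. All others were called alone. The first gene of a run was reached by stepping upstream by that strand and gap rule, also through genes that were divergent. In a run were 27 of the 70 members (38.6%), against 19.7% of all protein-coding genes, and the median gap to the upstream gene was 105 bp. Of these 27, 1 had a thresholded peak (3.70%, interval 0.657 to 18.3), against 6.27% of all protein-coding genes in runs, and that 1 was the distant peak of mrps-21. Of the 26 divergent members 11 had one (42.3%, interval 25.5 to 61.1), against 27.0% of all divergent genes. Of the 17 members that stood alone 7 had one (41.2%, interval 21.6 to 64.0), against 6.21% of all such genes. Counting any annotated transcript start in place of the outermost one moved mrps-35, which faces an inner start of sws-1, and mrps-23 to the divergent members. The counts were then 12 of 28 divergent members (42.9%), against 26.9% of all divergent genes, and 6 of 15 that stood alone (40%), against 5.93% of all such genes. The 15 mrpl genes in runs had 0 thresholded peaks, and the 12 mrps genes in runs had 1.

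**Figure D4:**
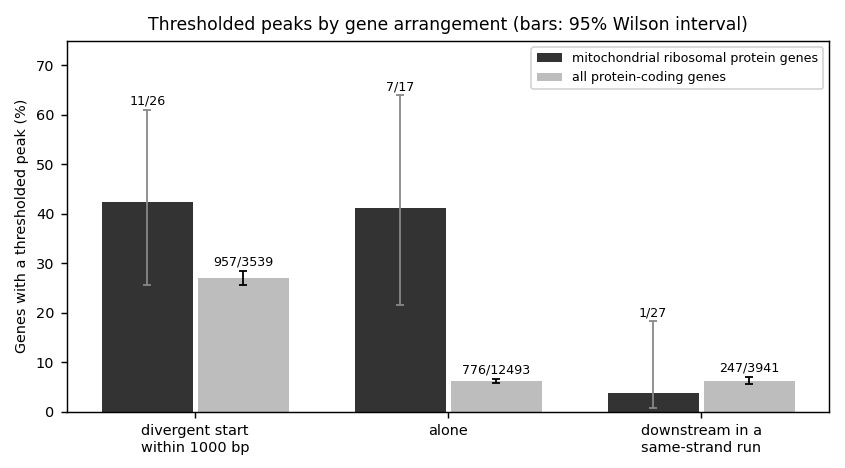
Share of genes with a thresholded peak (vertical axis, percent, from 0) for mitochondrial ribosomal protein genes (dark bars) and all protein-coding genes (light bars) by arrangement, with 95% Wilson intervals and the counts above. The dark bars stood at 42.3% for divergent genes, 41.2% for genes that stood alone and 3.70% for genes in a same-strand run.

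For 18 of the 26 run members with no thresholded peak of their own (69.2%), the first gene of the run had one, against 20.4% of the 3694 protein-coding genes in that position. In the lists described below it was 7 of 10 (70%) for respiratory chain and ATP synthase genes and 4 of 6 (66.7%) for cytosolic ribosomal protein genes. For other genes of mitochondrial gene expression it was 1 of 9, and for mitochondrial protein quality control 0 of 1. These 18 members followed 17 first genes, since mrps-2 and mrpl-4 both followed natc-1, an N-terminal acetyltransferase gene with a peak of signal 76.2. The signal at the first gene had a median of 55.7 and a range of 22.9 to 169. The highest was at rpn-3, a proteasome subunit gene upstream of mrpl-32, whose peak was rank 35 of the pooled list and lay 193 bp from the rpn-3 start and 2597 bp from the mrpl-32 start. Next were clsp-1 upstream of mrpl-54 (129, rank 90), misc-1, a mitochondrial carrier gene, upstream of mrpl-41 (108, rank 148), and vps-37, an ESCRT gene, upstream of mrpl-48 (102, rank 169). For the small subunit the highest were nrde-2, a nuclear RNAi gene, upstream of mrps-14 (93.3, rank 201), natc-1 upstream of mrps-2 (76.2, rank 326) and eif-3.E, a translation initiation factor gene, upstream of mrps-30 (74.0, rank 344). The ATP synthase gene atp-2 headed the run with mrps-26 (58.8, rank 538).

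The others were tag-124 upstream of mrpl-53, F21D5.7 of mrps-33, W04D2.4 of mrps-11, num-1 of mrps-12, fars-1 of mrpl-23, W04B5.5 of mrpl-30, uev-1 of mrps-27, T14B4.3 of mrps-18.C and znf-706 of mrpl-42, with signals of 22.9 to 55.7. From these summits to the member's own start the distance was 1171 to 9041 bp, with a median of 3841 bp. The first gene had no thresholded peak for the other 8, which were mrpl-2, mrpl-19, mrpl-21, mrpl-24, mrpl-44, mrpl-50, mrps-5 and mrps-22. Of the 20 members with no peak of any kind, 17 were in runs, and the 3 outside were mrpl-13, mrpl-22 and mrpl-46. The share in runs among all protein-coding genes with no peak was not computed, so the 17 cannot be read as a trait of the members. A thresholded peak at the gene or at the first gene of its run was found for 37 of 70 members (52.9%), against 13.7% of all protein-coding genes. Whether any of these runs is transcribed as 1 unit was not tested.

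By chromosome, 5 of 11 members on IV had a thresholded peak (45.5%), 3 of 10 on V (30.0%), 3 of 12 on II (25%), 5 of 22 on III (22.7%) and 3 of 15 on I (20%). For all protein-coding genes the shares were 9.94% on IV, 6.61% on V, 8.81% on II, 15.9% on III and 14.1% on I. The X chromosome held 0 of the 70 members and 2731 of the 19973 protein-coding genes, of which 7.18% had a thresholded peak.

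The mitochondrial ribosomal protein genes were set beside 4 other lists. The cytosolic list followed name prefixes only. The respiratory chain and gene expression lists joined name patterns with picked genes, and the quality control list was picked gene by gene. Of 78 cytosolic ribosomal protein genes 65 had a thresholded peak (83.3%, interval 73.5 to 89.99), with a median signal of 73.1, led by rpl-3 (405.6), rpl-15 (399), rpl-20 (357) and rpl-35 (347). Genes of the respiratory chain and ATP synthase had one in 25 of 48 (52.1%, interval 38.3 to 65.5). Most, but not all, of these protein complexes contain products of the mitochondrial ribosome. That list was led by cox-5A (243) and cox-6B (201), cytochrome c oxidase subunits. Genes of mitochondrial protein import and quality control had one in 11 of 18 (61.1%, interval 38.6 to 79.7), led by tomm-20 (128) and the chaperonin gene hsp-60 (120). Other genes of mitochondrial gene expression had one in 6 of 23 (26.1%, interval 12.5 to 46.5), led by ears-2 (119) and gfm-1 (48.1). The 27.1% of the mitochondrial ribosomal protein genes lay inside the interval of the gene expression list. It lay below the intervals of the cytosolic, respiratory chain and quality control lists. Among genes outside runs, 18 of 43 mitochondrial (41.9%) and 63 of 70 cytosolic ribosomal protein genes (90%) had one, against 10.8% of all protein-coding genes so placed. Differences between lists were not tested.

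**Figure D5:**
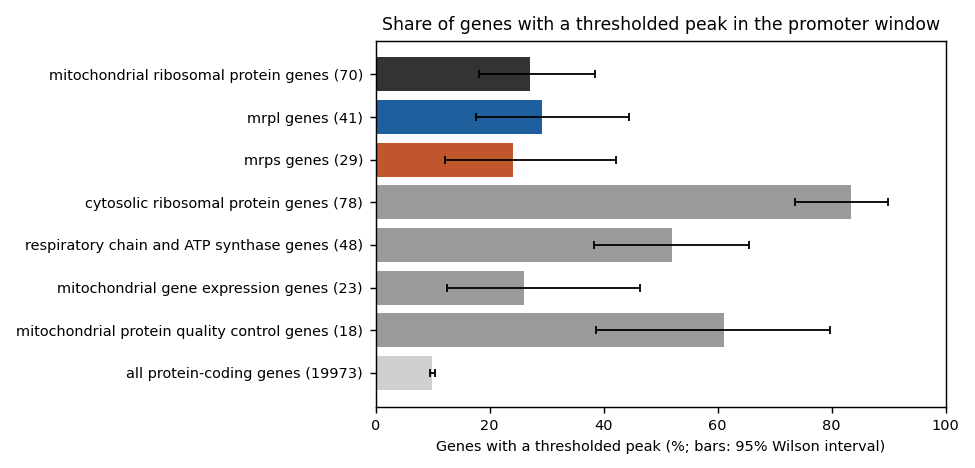
Share of genes with a thresholded peak in the promoter window (horizontal axis, percent, from 0) for each list, with 95% Wilson intervals and the number of genes in brackets. The mitochondrial ribosomal protein genes stood at 27.1%, their mrpl and mrps genes at 29.3% and 24.1%, cytosolic ribosomal protein genes at 83.3% and all protein-coding genes at 9.91%.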

How the data were processed

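ChIP-seq of tagged CEH-82 was done in 2 biological replicates of 1 group, after sonication, per the labels. Peak lists on ce11 were used, and those on ce10 were not. Each relaxed list, which served as input to the irreproducible discovery rate step, derived from the alignments and 1 further file, per the deposited file lists. The aligner, peak caller, threshold and control were not given in the sources used here. Signal, as deposited, is the authors' score per peak, never negative and scaled differently in each list. The deposited −log10 q values were at 3.81 for all 2052 thresholded peaks and were not used to rank. The 2052 thresholded peaks were the strongest of the pooled list.

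Transcript starts came from the WBcel235 annotation (Ensembl release 115) and sequences from RefSeq WBcel235. No coordinate was converted between builds. A gene with several peaks took the strongest. Matches to a replicate needed an overlap of 1 bp. Shares have 95% Wilson intervals, which treat genes as independent although neighbours share peaks. No hypothesis test was run, since 1 group gives no contrast over samples. The members, lists and motifs were chosen with earlier results of these data known, and CTCNANNGC and the same-strand runs after seeing these peaks. All 70 members are named, with coordinates and replicate ranks for the 10 with the highest signal. Other genes are named where they share a member's peak, head its run or lead a list. Lists follow name patterns or genes picked by name and miss members named otherwise. The code that places peaks at genes was run on simulated summits planted inside the same windows, which does not test the placement rule. Python 3.11.15, NumPy 2.4.6, SciPy 1.17.1, pandas 2.3.3, pysam 0.24.0 and matplotlib 3.10.9 were used.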

Additional observations from a re-analysis of the deposited data

How the results depend on the processing

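In all, 104 alternative values were computed. Counts were held to a factor of 1.5, and differences in share and median distances to 1 SD of the values from each replicate alone, a bound wide enough for the mrpl minus mrps difference to pass throughout. Within those bounds lay 77 values, and 27 lay outside. A change of direction was possible only for the differences in share and the median distance, and 0 of these changed sign. Counts have no sign to change, and the window reaches mostly upstream, which favours a negative median distance. Giving each peak only to the nearest protein-coding start left 11 members with a thresholded peak, 7 mrpl and 4 mrps genes, all 11 outside runs and 0 in runs, with 5 shared peaks, a median distance of -146 bp and a share 8.68 percentage points above that of all protein-coding genes, in place of 17.2. Counting only summits in 1 gene's window left 6 members, 5 mrpl and 1 mrps, with 6 outside runs and 0 in runs, 4 within 200 bp, a median of -124.5 bp, a difference of 4.29 points and 4 run members whose first gene had a peak. A window of 2000 bp gave 21 shared peaks, 5 run members with a peak, a median of -216 bp and a difference of 23.1 points, and a window of 500 bp gave 0 run members with a peak. Overlap of the whole peak with the window, and a run gap of 1000 bp, each gave 2 run members with a peak. Leaving out 1 replicate at a time gave 18 to 21 members, differences from all genes of 15.9 to 20.9 points, medians of -188 to -170.5 bp and 1 to 3 run members with a peak. The difference of the mrpl minus the mrps share, 5.13 points, was 2.69 to 10.01 points under the alternatives. The replicate, overlap, threshold and window alternatives were planned, and the run gap, the run counts, the start used for divergent genes and the inclusion of mrpl-58 were added after seeing the data. No paired analysis was possible because there was only 1 group.

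A summit between 2 divergent starts belongs to both windows. With 2 replicates and no depth given, a gene without a peak is one where none was called at this depth.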

Other observations

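Other genes of mitochondrial gene expression were grouped here after their values were seen, and their counts stand beside the 9.91% of all protein-coding genes with a thresholded peak. Of 11 mitochondrial tRNA synthetase genes, 1 had a thresholded peak, ears-2, with a signal of 119, rank 116 of the pooled list and a summit 28 bp upstream, shared with uncp-18. Another 6 had a relaxed peak only, the highest being rars-2 at 9.63, and 4 had none. Of 5 translation factor genes, 3 had a thresholded peak, which were gfm-1 (48.1), tufm-2 (31.6) and tufm-1 (28.0). The other 2, mrrf-1 and tsfm-1, had a relaxed peak only, with signals of 5.79 and 4.64. Of 5 genes of mitochondrial DNA replication and transcription, 1 had one, the single-stranded DNA-binding protein gene mtss-1 (36.9), while the polymerase gene polg-1 had a relaxed peak of 4.66 and the RNA polymerase gene rpom-1 had none. Outside these groups, mma-1 had a thresholded peak with a signal of 32.8, rank 1346. No difference between these groups was tested.

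A small subunit protein gene outside the naming rule, dap-3, had a relaxed peak with a signal of 11.7, rank 4054. The gene R02F2.9, which only RefSeq names mrpl-58, had a relaxed peak with a signal of 22.3 at 41 bp upstream, just below the weakest thresholded member peak of 22.7.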
